A study of Mus musculus with 24 samples.

Results

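The expression of 9 genes that mark macrophages was followed in the gastrocnemius muscle of male and female mice. The genes were Cd68, Adgre1, Csf1r, Cd163, Mrc1, Lyz2, C1qa, C1qb and C1qc, taken as a list of symbols and matched to the Ensembl identifiers of a table of 55416 genes. All 9 were found, and all 9 were among the 16408 genes that passed the filter on low counts. The list was made by name. It was chosen with earlier results of these data known. RNA was sequenced from 24 mice of 4 groups, sham and SMC mice of each sex, with 6 mice in a group. SMC mice had lived for 8 weeks in a small mouse cage that restricts movement, and sham mice were free to walk. The labels give the strain of all mice as C56BL6J, and the study's methods name wild-type C57BL/6J animals bought at 8 weeks of age, kept on a 12-hour light and dark cycle and fasted for 4 hours before tissues were taken. Some SMC and sham mice of the study were housed in pairs and others in separate cages, and the labels do not say which applied to these 24. Each library came from 1 mouse.

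Resident macrophages of skeletal muscle sit in the connective tissue between fibres and around vessels, where they clear debris, handle iron and signal to fibroblasts and muscle stem cells. Their survival depends on the receptor encoded by Csf1r, and much of their gene program is set by the transcription factor PU.1, encoded by Spi1. They are also a main source of C1q, the recognition molecule of the classical complement pathway, which is built from the products of C1qa, C1qb and C1qc. In bulk tissue, fewer macrophages and less RNA of these genes per macrophage cannot be told apart.

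The libraries held between 23026627 and 36880413 counted reads. Counts of the 9 genes in single libraries ranged from 20, for Cd68, to 1589, for Lyz2. Values are given as CPM, counts relative to library size with TMM scaling. The labelled tissue was borne out by 7 muscle fibre markers, led by Ttn and Myh4, whose summed level lay between 143785 and 371558 CPM. By contrast, the 9 genes together came to between 46.0 and 201 CPM. T and NK cell and neutrophil markers were low. The 9 T and NK cell markers summed to between 0.162 and 2.01 CPM and the 9 neutrophil markers to between 0.834 and 5.78 CPM, with Ly6g and Camp at 0 in 22 of 24 libraries. Of the 6 B cell markers Ighm alone passed the filter, at a mean of 26.8 CPM, and the other five had mean levels of at most 0.143 CPM. Red blood cell markers were not low, and the 5 of them summed to between 74.3 and 1844 CPM. In the 9 genes 3 mice stood apart, female sham replicate 8 with high and female sham replicates 7 and 11 with low values, and results are also given without them.

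**Figure D1:**
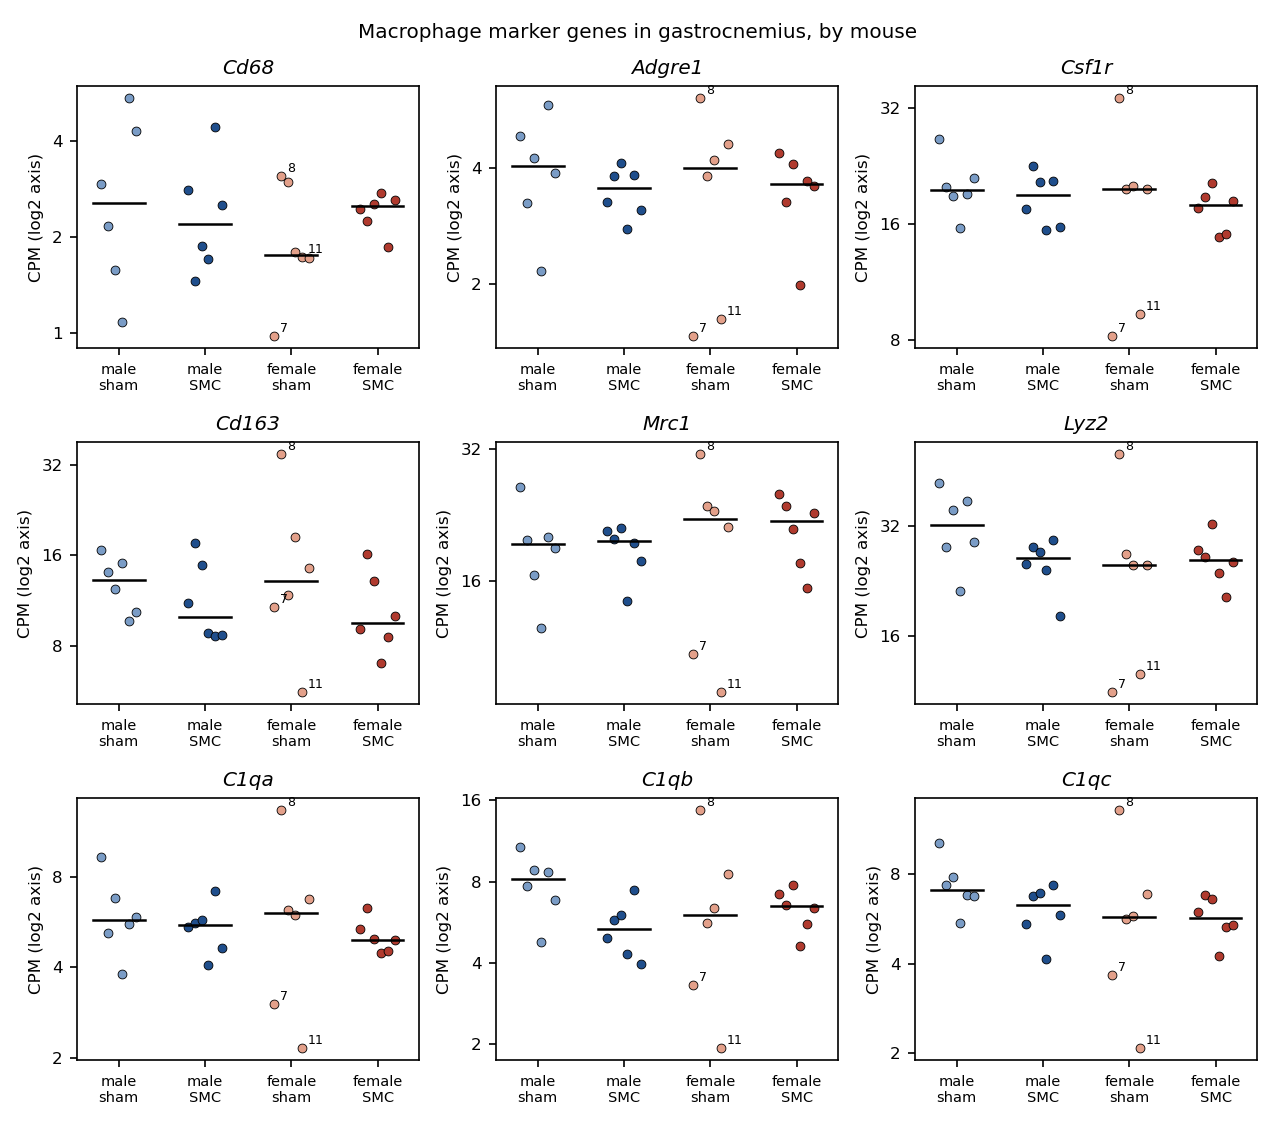
CPM of each gene on a log2 axis, with 1 point per mouse and a bar at the median of the 6 mice of each group. Numbers mark female sham replicates 7, 8 and 11. Replicate 8 was the highest female sham mouse for all 9 genes, and replicates 7 and 11 lay at the low end for most.

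Divided by exon length, Lyz2 was the most abundant of the 9, at a mean of 20.6 CPM per kilobase over the 24 libraries. It encodes lysozyme M, an enzyme that cleaves bacterial cell walls. C1qb followed at 6.09, C1qa at 5.51, C1qc at 3.29, Csf1r at 3.24, Mrc1 at 3.09, Cd163 at 2.35, Cd68 at 1.96 and Adgre1 at 1.13 CPM per kilobase. Lyz2 exceeded C1qb in 24 of 24 libraries and C1qa exceeded C1qc in 24 of 24. Several neighbours in this order did not separate. C1qb exceeded C1qa in 16 of 24 libraries, C1qc exceeded Csf1r in 14 of 24, Csf1r exceeded Mrc1 in 15 of 24 and Cd163 exceeded Cd68 in 14 of 24. Lyz2 has a near-identical neighbour, Lyz1, with which it can share reads. Lyz1 was counted at a median of 1.46 CPM against 26.5 CPM for Lyz2, and how reads were split between them is uncertain.

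Within each sex, SMC and sham mice were compared by the quasi-likelihood test of edgeR. P-values were adjusted over all genes by the Benjamini-Hochberg method, and genes with an adjusted p (FDR) under 0.05 are named as called. In males 0 of the 9 genes were called, where 0% of all genes tested were. In females 0 of the 9 were called, where 0.341% of all genes were. In this fit of all 24 libraries, the unadjusted p was under 0.05 for 0 of the 9 in either sex. DESeq2 also called 0 of the 9 in each sex, with 0 at an unadjusted p under 0.05 in males and 1, Cd163, in females. In males all 9 had a lower fitted mean with SMC, and their median log2 fold change was -0.21. Over all genes the median was 0.00 and 50.9% were lower. Without male sham replicate 1, 8 of the 9 were lower and the median was -0.15. Without male sham replicate 5, 7 of the 9 were lower and the median was -0.20. The 9 genes did not vary independently across mice, as described below. In females 6 of the 9 were lower and 3 higher, with a median of -0.09, beside -0.01 and 52.4% lower over all genes. Without female sham replicate 8, 1 of the 9 was lower in females and the median was 0.24. The ranges of SMC and sham mice overlapped for all 9 genes in both sexes, where 0.902% of all genes in males and 1.03% in females had ranges that did not. The 95% intervals of the single genes reached from a log2 fold change of -1.18 to 0.45 in males and from -1.21 to 0.90 in females, so changes of that size were not resolved with 6 mice a group. For each gene the spread was estimated over all groups together. Intervals and p-values in males therefore also carry the spread among female mice.

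**Figure D2:**
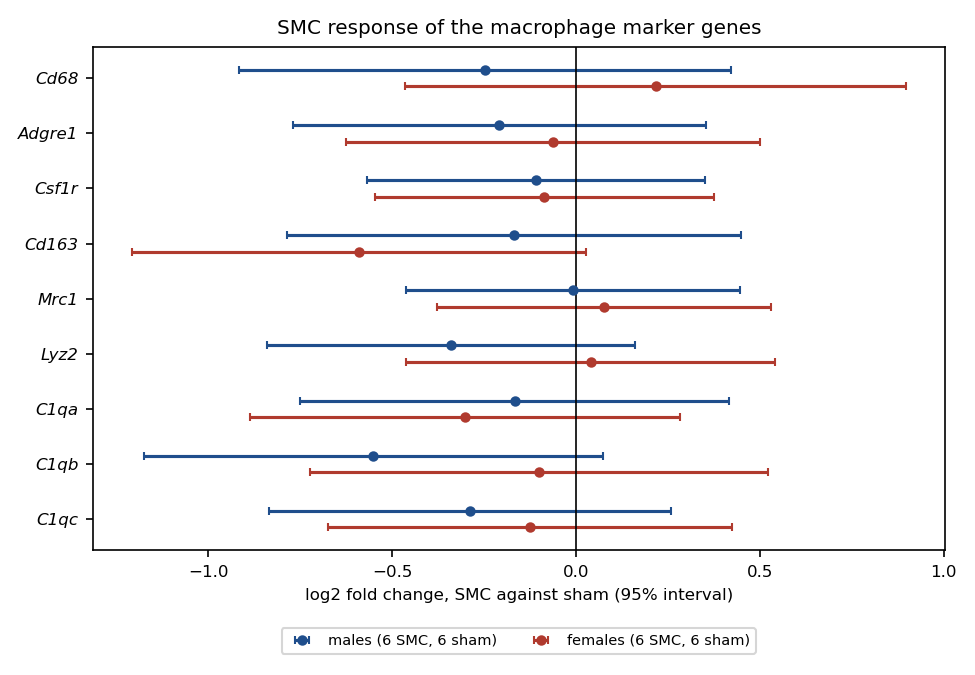
Log2 fold change of SMC against sham for each gene, with 95% intervals from the edgeR fit, in males (blue) and females (red), 6 SMC and 6 sham mice each. Every interval crosses 0. The points lie furthest from 0 for C1qb in males, at -0.55, and for Cd163 in females, at -0.59.

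Csf1r encodes the receptor for the growth factors CSF1 and IL-34. In male sham mice it lay between 15.6 and 26.5 CPM with a median of 19.5, and in male SMC mice between 15.4 and 22.5 with a median of 19.03. In female sham mice it lay between 8.19 and 33.9 CPM with a median of 19.7, and in female SMC mice between 14.8 and 20.4 with a median of 17.9. The 4 medians were close, and the female sham range enclosed the other three ranges. The SMC fold was 0.927 in males (95% interval 0.674 to 1.28, edgeR FDR 0.910) and 0.942 in females (95% interval 0.684 to 1.30, FDR 0.916). In the GENCODE M21 annotation an exon of Csf1r overlaps Hmgxb3 on the other strand. The libraries were made with a directional kit, but whether counting used the strand is not given in the sources used here. None of the other eight genes shared exon sequence with another gene there.

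Adgre1 encodes F4/80, the antigen used to stain mouse macrophages. Its median was 4.05 CPM in male sham, 3.53 in male SMC, 4.0 in female sham and 3.63 in female SMC mice. The lowest and highest mice were at 2.15 and 5.83 CPM in male sham and at 2.77 and 4.12 in male SMC. They were at 1.46 and 6.06 CPM in female sham and at 1.98 and 4.37 in female SMC. SMC medians were below sham medians in both sexes, within ranges that overlapped throughout. The log2 fold change was -0.21 (SE 0.272, edgeR FDR 0.843) in males and -0.06 (SE 0.273, FDR 0.954) in females.

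Cd163 encodes the receptor that takes up hemoglobin bound to haptoglobin. It had the largest difference of the 9 in females. Female sham mice lay between 5.60 and 34.9 CPM with a median of 13.2, and female SMC mice between 7.0 and 16.1 with a median of 9.55. The highest sham mouse, replicate 8, lay far above the highest SMC mouse, while the lowest sham mouse, replicate 11, was below all SMC mice. The log2 fold change was -0.59 (SE 0.299, unadjusted p = 0.0599, edgeR FDR 0.426). Without female sham replicate 8 it was -0.20. In males Cd163 lay between 9.68 and 16.7 CPM in sham (median 13.2) and between 8.59 and 17.6 CPM in SMC (median 9.96), with a log2 fold change of -0.17 (SE 0.299, FDR 0.892). Male SMC replicates 16, 17 and 18 lay between 8.59 and 8.83 CPM and the others between 11.1 and 17.6. The SMC range enclosed the sham range.

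Mrc1 encodes the mannose receptor, which binds sugars on glycoproteins and microbes and marks resident macrophages of muscle. It differed least of the 9 between male groups. Male sham mice lay between 12.5 and 26.2 CPM with a median of 19.4, and male SMC mice between 14.4 and 21.1 with a median of 19.8. The medians in females were 22.1 CPM in sham, over a range from 8.90 to 31.2, and 21.9 in SMC, over a range from 15.4 to 25.3. The SMC fold was 0.994 in males (95% interval 0.726 to 1.36, edgeR FDR 0.992) and 1.05 in females (95% interval 0.770 to 1.44, FDR 0.928). The interval in males leaves out a fall to below 0.726 of the sham level and a rise above 1.36 times that level.

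Lyz2 lay between 21.2 and 41.7 CPM in male sham mice, with a median of 32.1. Male SMC mice were between 18.2 and 29.2 CPM with a median of 26.2. Of the 6 sham mice 3 lay above the highest SMC mouse, while sham replicate 4 lay below 5 of the 6 SMC mice. The log2 fold change was -0.34 (SE 0.243, edgeR FDR 0.665). In females the median was 25.1 CPM in sham, over a range from 11.3 to 50.2, and 25.9 in SMC, over a range from 20.5 to 32.3, with a log2 fold change of 0.04 (SE 0.243, FDR 0.972).

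Cd68 encodes a glycoprotein of the lysosome membrane and was the least abundant of the 9 in reads. Male sham mice lay between 1.08 and 5.47 CPM with a median of 2.55, and male SMC mice between 1.45 and 4.43 with a median of 2.19. Female sham mice lay between 0.9748 and 3.11 CPM with a median of 1.75, and female SMC mice between 1.86 and 2.75 with a median of 2.49. It was the one gene whose largest spread was among male sham mice, where the highest mouse was 5.08 times the lowest. The log2 fold change was -0.25 (SE 0.325, edgeR FDR 0.843) in males and 0.22 (SE 0.330, FDR 0.848) in females. The male value rested on male sham replicate 5, without which it was 0.02.

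The 3 C1q genes lie side by side on chromosome 4, in the order C1qb, C1qc, C1qa by position, with 0 other annotated genes between them. C1qb had the largest difference of the 9 in males. Male sham mice lay between 4.80 and 10.7 CPM with a median of 8.20, and male SMC mice between 3.97 and 7.45 with a median of 5.36. The log2 fold change was -0.55 (SE 0.303, unadjusted p = 0.0808, edgeR FDR 0.521). In females C1qb had a median of 6.01 CPM in sham, over a range from 1.94 to 14.8, and 6.48 in SMC, over a range from 4.61 to 7.78, with a log2 fold change of -0.10 (SE 0.302, FDR 0.932).

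C1qa and C1qc differed less between male groups than C1qb did. The medians of C1qa were 5.75 CPM in male sham, over 3.81 to 9.35, and 5.54 in male SMC, over 4.07 to 7.19. Female sham mice had a median of 6.09 CPM, over 2.15 to 13.4, and female SMC mice 4.95, over 4.45 to 6.30. Its log2 fold change was -0.17 in males (SE 0.283, edgeR FDR 0.888) and -0.30 in females (SE 0.284, FDR 0.728). C1qc had a median of 7.10 CPM in male sham, over 5.46 to 10.2, and 6.28 in male SMC, over 4.15 to 7.34. Its medians in females were 5.74 CPM in sham, over 2.08 to 13.2, and 5.68 in SMC, over 4.25 to 6.81. The log2 fold change of C1qc was -0.29 in males (SE 0.265, FDR 0.753) and -0.13 in females (SE 0.267, FDR 0.895). All of these ranges overlapped.

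The start regions of genes of this list were read from RefSeq. Windows of 6 of the 9 genes were used, on build GRCm38.p6, and those of Adgre1, Csf1r and C1qa were not. The 250 bases before the start of transcription were searched. The letters GAGGAA, the core that PU.1 binds, were looked for on both strands. They were present in 4 of the 6 windows, those of Cd68, Mrc1, C1qb and C1qc, and absent from those of Cd163 and Lyz2. Of all 32851 windows of this length, 23.3% held them. A match is only a match of letters. C1qb and C1qc are shown as the C1q genes with a window, and Cd68 because it followed the others least. Capitals mark GAGGAA or its reverse complement TTCCTC, and each sequence is written 5′ to 3′ on the gene's own strand.
C1qb (chr4:136886201-136886450, minus strand): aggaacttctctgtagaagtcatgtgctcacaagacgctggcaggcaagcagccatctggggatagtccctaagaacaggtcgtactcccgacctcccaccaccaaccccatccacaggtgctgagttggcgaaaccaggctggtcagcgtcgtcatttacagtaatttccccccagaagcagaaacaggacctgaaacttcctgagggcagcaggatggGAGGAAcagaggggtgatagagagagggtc
C1qc (chr4:136892915-136893164, minus strand): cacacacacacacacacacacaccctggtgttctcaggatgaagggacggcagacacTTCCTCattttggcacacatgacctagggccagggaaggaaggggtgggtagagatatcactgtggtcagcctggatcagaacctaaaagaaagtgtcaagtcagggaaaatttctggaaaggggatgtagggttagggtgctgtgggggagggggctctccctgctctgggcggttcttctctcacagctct
Cd68 (chr11:69666171-69666420, minus strand): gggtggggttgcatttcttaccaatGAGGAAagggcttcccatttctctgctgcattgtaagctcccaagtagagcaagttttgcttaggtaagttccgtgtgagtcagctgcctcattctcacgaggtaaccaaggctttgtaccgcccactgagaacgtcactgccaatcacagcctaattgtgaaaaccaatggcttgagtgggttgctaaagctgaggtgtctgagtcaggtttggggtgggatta

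Averaged over both sexes, with 12 SMC against 12 sham mice, 0 of the 9 genes were called, where 2.36% of all genes were. Of the 9, 8 were lower with SMC, with a median log2 fold change of -0.15, beside -0.01 over all genes. Without female sham replicate 8, 5 of the 9 were lower and the median was -0.026. Cd163 had the lowest p, with a log2 fold change of -0.38 (SE 0.211, unadjusted p = 0.0848, edgeR FDR 0.361). The SMC response was then compared between the sexes. None of the 9 was called (0 of 9, where 0% of all genes were), with 0 at an unadjusted p under 0.05 by edgeR and 0 by DESeq2. The smallest p was that of Lyz2, whose response was 0.38 lower on the log2 scale in males than in females (95% interval -1.09 to 0.33). Between sham males and sham females 0 of the 9 were called, where 1.97% of all genes were, and Cd68 had the smallest p, with a log2 difference of 0.50 (SE 0.327, edgeR FDR 0.491) toward males. Without female sham replicate 8, Lyz2 was the closest to a call of any gene of the list in any comparison tried, with an FDR of 0.101 for sham males against sham females. Between SMC males and SMC females 0 of the 9 were called, where 1.03% of all genes were, and the 9 log2 differences lay between -0.23 and 0.13. DESeq2 called 0 of the 9 in each of these 4 comparisons, and the unadjusted p was under 0.05 for 0 of the 9 by either tool.

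The spread between mice differed more between groups than the levels did. The SD of log2 CPM over 6 mice lay between 0.59 and 1.01 for the 9 genes in female sham mice. It lay between 0.18 and 0.44 in female SMC, between 0.21 and 0.57 in male SMC and between 0.25 and 0.86 in male sham mice. Female sham had the largest SD of the 4 groups for 8 of the 9 genes, all but Cd68, and for 41.7% of all genes tested. The median SD over all genes was 0.28 in female sham and 0.21 in female SMC mice. The wide spread came from 3 mice. The 9 genes summed to 201 CPM in female sham replicate 8, to 53.5 in replicate 7 and to 46.0 in replicate 11. The other three female sham mice lay at 106, 109 and 111 CPM. All other mice lay between 79.9 and 149 CPM. Replicate 8 was the highest of its group for all 9 genes, and replicates 7 and 11 were lowest for 4 and 5 of them.

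**Figure D3:**
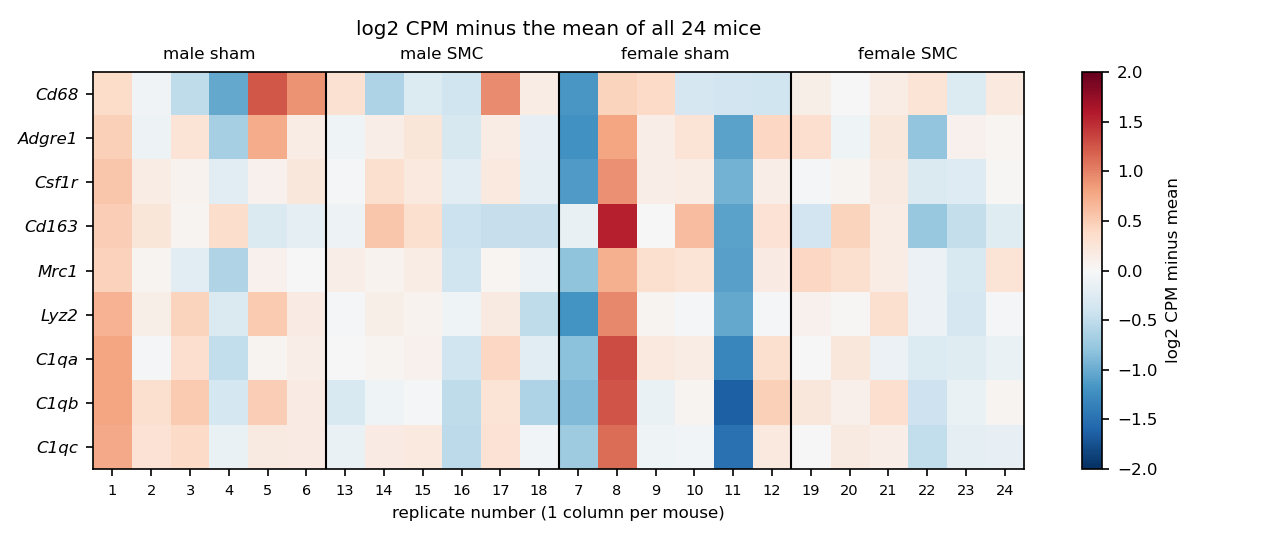
Log2 CPM of each gene (rows) in each mouse (columns, with replicate numbers), minus the gene's mean over the 24 mice. Red is higher and blue is lower. Female sham replicate 8 is red for all 9 genes and replicates 7 and 11 are mostly blue, while male sham replicates 5 and 6 are darkest for Cd68.

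Some other markers also lay at an end of the female sham range in some of these 3 mice. In replicate 8 the 7 fibroblast markers summed to 1404 CPM and the 5 mast cell markers to 28.2 CPM, both the highest of female sham, and the 7 muscle fibre markers to 143785 CPM, the lowest. For fibroblast markers replicates 10 and 12 were close to replicate 8, at 1320 and 1227 CPM. Replicate 7 had 444 CPM of fibroblast markers, the lowest of its group, 371558 CPM of muscle fibre markers, the highest, and 72.8 CPM of the 9 slow muscle fibre markers, where the other female sham mice had 1295 to 3094 CPM. Replicate 11 had 3.98 CPM of mast cell markers, the lowest of female sham. Its 723 CPM of fibroblast markers lay close to the 750 CPM of replicate 9. Red blood cell markers summed to 1844 CPM in replicate 8, to 104 in replicate 7 and to 74.3 in replicate 11, but the other three female sham mice, at 99.8 to 411 CPM, overlapped the low end. The part of tissue composition in the spread of the 9 genes was not tested. Without replicate 8 alone, Adgre1, Csf1r, C1qa, C1qb and C1qc changed sign in females, to log2 fold changes of 0.14, 0.17, 0.07, 0.29 and 0.24, none of them called. With all 3 mice left out, the 9 log2 fold changes in females lay between -0.49, for Cd163, and 0.14, for Cd68, with a median of -0.12, and 0 of the 9 were called in any of the 6 comparisons. C1qb and Lyz2 in males then had an unadjusted edgeR p of 0.00506 and 0.0204, with FDRs of 0.192 and 0.284. The male mice were the same in this fit, but the spread of each gene was estimated over all groups.

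After the mean of each group was subtracted, 7 of the 9 genes rose and fell together across the 24 mice. Pearson's r of log2 CPM lay between 0.82 and 0.96 over the 21 pairs among Adgre1, Csf1r, Mrc1, Lyz2, C1qa, C1qb and C1qc. The 3 pairs of C1q genes had r between 0.95 and 0.96. Without female sham replicates 7, 8 and 11 the 21 pairs still ranged from 0.62 to 0.87 and the C1q pairs from 0.83 to 0.87. Cd163 followed less closely, with a median r of 0.70 to the others that was 0.29 without the 3 mice. Cd68 had a median r of 0.47 to the others, and its r with Cd163 was -0.07 (Spearman's rho -0.20), or -0.49 without the 3 mice. These values share library depth and tissue composition and are descriptions over mice.

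The genes outside the list most like the mean of the 9 were ranked by the same measure, over 24 libraries and 16399 genes. The 10 highest were Fcgr3 (r = 0.93), Col6a3 (0.93), Nid1 (0.92), F13a1 (0.92), Cd53 (0.91), Folr2 (0.91), C1s1 (0.90), Emilin2 (0.89), Ccl9 (0.89) and Fstl1 (0.89). Fcgr3, an Fc receptor, Cd53, a leukocyte tetraspanin, Folr2, a folate receptor of resident macrophages, F13a1, a coagulation factor subunit, and Ccl9, a chemokine, are known from myeloid cells. Col6a3 and Nid1 encode matrix proteins, C1s1 a protease that acts with C1q, and Fstl1 and Emilin2 secreted proteins. Without the 3 mice their r ranged from 0.59, for Emilin2, to 0.85, for Cd53. The median r over all other genes was -0.02. Of the summed marker lists, mast cell markers had r = 0.88 with the mean of the 9 genes, fibroblast markers 0.72 and muscle fibre markers -0.56, and without the 3 mice these were 0.71, 0.43 and -0.34. Spearman's rho for muscle fibre markers was -0.13. Lymphatic endothelial markers had r = 0.68, dendritic cell markers 0.58, red blood cell markers 0.55 and satellite cell markers 0.52. Without the 3 mice these were 0.15, 0.25, -0.06 and 0.19. Endothelial markers had r = 0.19.

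The ratio between 2 genes within a library does not depend on how libraries are scaled, and C1qb to C1qa was singled out after its values were seen. In male sham mice the count of C1qb was 1.15 to 1.55 times that of C1qa, with a median of 1.28, and in male SMC mice 0.856 to 1.06 times, with a median of 1.03. All 6 male SMC mice lay below all 6 male sham mice. In females the order was the other way, with 0.900 to 1.26 in sham (median 1.08) and 1.04 to 1.57 in SMC (median 1.26), and these ranges overlapped. Counting error alone gives a library's log2 ratio an SD between 0.10 and 0.27, against an SD between mice of 0.13 to 0.23 within groups. The mean log2 ratio changed by -0.41 with SMC in males (two-sided exact permutation p = 0.00216, the smallest that 924 relabellings can give) and by 0.24 in females (exact permutation p = 0.0866). Among all 36 pairs of the 9 genes in both sexes, 72 tests, the adjusted values were 0.156 and 0.336, and 0 of 72 passed. The difference between the 2 responses was -0.65 on the log2 scale (exact permutation of treatment within each sex, p = 0.000391, adjusted over 36 pairs 0.0141), and 1 of the 36 pairs passed. This permutation assumes no SMC effect in either sex, so its p-value is not specific to a difference between the sexes. Because the pair was picked from these values, the p-value is a description. The gene fit above, adjusted over all genes, called neither C1qa nor C1qb for a sex difference in response. For C1qc to C1qa the means were 1.24 in male sham, 1.12 in male SMC, 1.01 in female sham and 1.12 in female SMC mice, with SDs of 0.10 to 0.15.

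**Figure D4:**
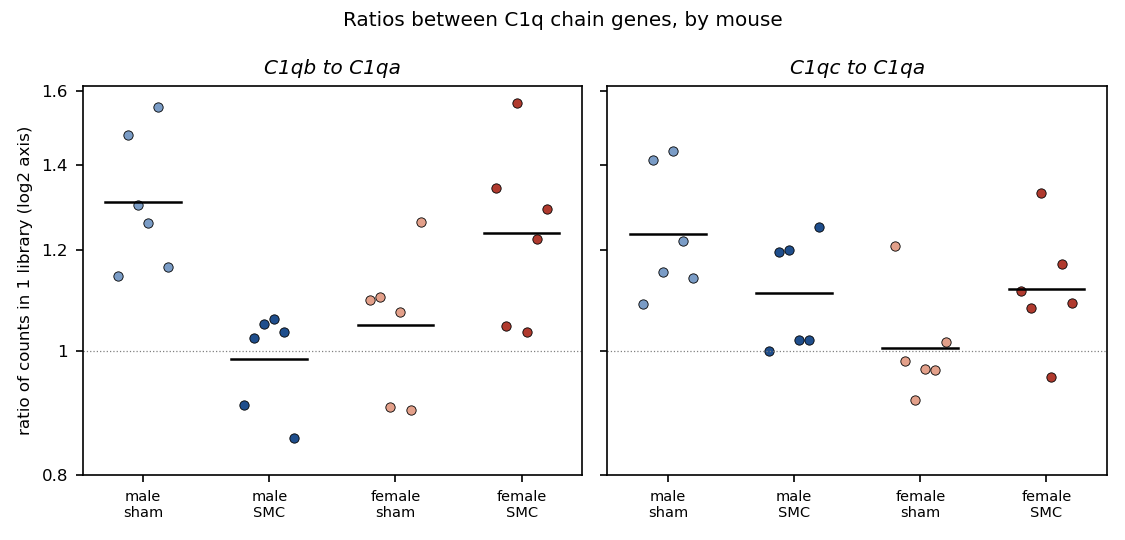
Ratio of the counts of C1qb to C1qa (left) and of C1qc to C1qa (right) in each mouse, on a log2 axis, with a bar at the geometric mean of the 6 mice of each group. Male SMC mice lie at 0.856 to 1.06 for C1qb to C1qa, below all male sham mice, while the female groups overlap.

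Other genes of macrophage biology were taken as 10 lists, of which 4 held a called gene. Of all genes tested, 0% to 2.36% were called in each of the 6 comparisons. The share of all genes called in at least 1 of them is not given here, so the list counts have no such share beside them. Of 20 other macrophage identity genes 19 were tested and 0 were called in any of the 6 comparisons. Of these 18 were lower with SMC in males (median log2 fold change -0.13) and 11 in females (median -0.06). Cx3cr1, the fractalkine receptor, had a log2 fold change of -0.64 in males (edgeR FDR 0.623) and 0.84 in females (FDR 0.428), from means under 0.67 CPM. Of 14 genes of tissue-resident macrophages 13 were tested and 1 was called. Cbr2, a carbonyl reductase, was higher in males than in females, by a log2 difference of 1.46 in sham (SE 0.196, FDR 9.29e-05) and 1.42 in SMC mice (SE 0.197, FDR 0.00011). It lay between 14.9 and 32.1 CPM in the 12 males and between 4.09 and 11.6 CPM in the 12 females, with no overlap, and it was called in 33 of 33 alternatives in each of these comparisons. Its SMC log2 fold change was -0.12 in males (FDR 0.878) and -0.08 in females (FDR 0.911).

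For the CSF1 receptor axis all 10 listed genes were tested. Cebpb, a transcription factor of the myeloid lineage that other cells also use, fell with SMC averaged over the sexes, by 0.80 on the log2 scale (SE 0.162, edgeR FDR 0.0119). It went from 78.7 ± 28.4 CPM (SD, n = 6) in sham to 46.3 ± 6.39 in SMC males and from 97.7 ± 41.0 to 55.0 ± 9.03 in females. It lost the call only without female sham replicates 7, 8 and 11 (FDR 0.0570), of 32 alternatives. The other nine genes of the axis, Csf1, Il34 and Spi1 among them, were not called in any comparison. Of 12 inflammatory genes 8 were tested and Nos2, the inducible nitric oxide synthase, rose averaged over the sexes, by 0.49 on the log2 scale (SE 0.131, FDR 0.0491). This call held in 7 of 32 alternatives, all of which had the same direction. Its means were 4.16 CPM in male sham, 5.22 in male SMC, 2.92 in female sham and 4.598 in female SMC mice. Of 10 genes for scavenging and hemoglobin handling 9 were tested. Slc40a1, the iron exporter ferroportin, was higher in SMC males than in SMC females by 0.54 on the log2 scale (SE 0.131, FDR 0.0426), and Ftl1, ferritin light chain, was higher in sham males than in sham females by 0.46 (SE 0.106, FDR 0.0243). The call of Slc40a1 held in 16 of 33 alternatives and that of Ftl1 in 29 of 33, with the same direction in all.

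In the remaining lists edgeR called 0 genes in any of the 6 comparisons, with 13 of 69 genes (18.8%) at an unadjusted p under 0.05 in at least 1, where 37.5% of all genes were. DESeq2 called 2 genes of these lists, Ctsl and Lamp2, and had 18 of 69 (26.1%) at an unadjusted p under 0.05, where 38.3% of all genes were. Over all genes DESeq2 called between 1 and 778 in a single comparison. The remaining lists were monocyte and recruited macrophage genes (9 of 12 tested), complement genes outside C1q (17 of 17), lysosome genes (11 of 12), MHC class II genes (7 of 7), macrophage chemokines (6 of 10) and the other identity genes above. The MHC class II genes, which present antigen, were all 7 higher with SMC in females (median log2 fold change 0.30), and 5 of 7 were lower in males (median -0.19). The direction in females rested on female SMC replicate 21, whose summed level was 225 CPM where the other five lay between 46.5 and 69.5 CPM, and without it 2 of 7 were higher, with a median of -0.15. Female sham replicate 8 stood at 152 CPM, and without that mouse all 7 were higher, with a median of 0.58. Their regulator Ciita had the smallest p, with 1.03 in females (SE 0.373, edgeR FDR 0.220), where 1 of the 6 SMC mice, replicate 21, stood at 10.5 CPM against a median of 1.84. Without it the value was 0.29 (FDR 0.673). H2-DMb1 followed, at -0.77 for SMC males against SMC females (SE 0.339, FDR 0.407). The lysosomal protease gene Ctsl had a log2 fold change of -0.28 averaged over the sexes (SE 0.0776, FDR 0.0506), and Lamp2, a lysosome membrane protein, one of -0.18 (SE 0.0523, FDR 0.0666). The complement gene C2 was at 0.67 in males (SE 0.255, FDR 0.316) and -0.03 in females, and Clu at 0.21 averaged over the sexes (SE 0.0842, FDR 0.191). Among monocyte genes Cd9 had the smallest p, with a log2 difference of -0.37 for sham males against sham females (SE 0.174, FDR 0.310). Trem2 followed, at 1.36 in the same comparison (SE 0.715, FDR 0.367). Among chemokines Cx3cl1 had the smallest p, with a response to SMC that was 0.76 lower on the log2 scale in males than in females (SE 0.402, FDR 0.955). Ccl8 followed, at -1.11 for sham males against sham females (SE 0.665, FDR 0.441).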

How the data were processed

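The authors extracted total RNA from gastrocnemius, depleted ribosomal RNA and made directional libraries. Per the submitters' processing notes, cutadapt 1.16, STAR 2.7.9a, featureCounts 1.6 and DESeq2 1.34.0 were used with build GRCm39, and the annotation release and the strand and multi-mapping settings are not given in the sources used here. The deposited values are raw read counts per Ensembl gene, 1 column per mouse. Symbols were matched through GENCODE M21 for 52083 of 55416 genes, and exon lengths came from that release. Genes without a symbol held 0.361% of counts.

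Genes were filtered with filterByExpr, scaled by TMM and fitted with 1 mean per group over 24 libraries by edgeR 4.0.16 (R 4.3.3) quasi-likelihood tests with Benjamini-Hochberg adjustment over 16408 genes. Tests were two-sided. Standard errors (SE) were derived from the log2 fold change and the F statistic of each test, and intervals came from these. A prior count of 2 entered log2 CPM. The fit was tested on simulated data. The replicate numbers are library numbers that no 2 groups share. Mice are separate animals, and counts carry sampling error too.

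The members and gene lists were chosen with earlier results of these data known. All 9 members are named, and of each list the called genes, at most 4, or else the 2 of smallest p. One gene that this rule would name is not reported here. Likeness took the 10 genes with the highest r to the mean z-scored log2 CPM of the members. Alternatives were DESeq2 1.42.0, RLE or total library size scaling, no filter, 10 counts in every library, the 12 libraries compared, limma 3.58.1 voom with sample weights, and leaving out libraries.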

Additional observations from a re-analysis of the deposited data

Results flagged for a closer look

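The SMC response of the C1qb to C1qa ratio differed between the sexes, by -0.65 on the log2 scale as male minus female response (exact permutation of treatment labels within each sex, p = 0.000391, adjusted over 36 pairs 0.0141). The mean log2 ratio was 0.39 in male sham, -0.02 in male SMC, 0.07 in female sham and 0.31 in female SMC mice, with 6 mice in each. The pair was chosen for this pattern and then tested on the same values, so the p-values are a description. The permutation also assumes no SMC effect in either sex, so its p-values are not specific to a difference between the sexes. The male change alone had an adjusted permutation p of 0.156 over 72 tests. With each mouse left out in turn the difference lay between -0.70 and -0.58, with unadjusted exact permutation p between 0.000134 and 0.00103. Without female sham replicates 7, 8 and 11 it was -0.62 (exact permutation p = 0.00343).

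No single mouse stood far enough from its group to be marked as an outlier in 36 gene and group combinations and 4 groups of the ratio, 40 in all (0 of 40). The rule weighs 1 mouse at a time against its group. In female sham, replicate 8 was high and replicates 7 and 11 were both low, so they widen the range and can hide one another. The result therefore cannot show that these mice were like the rest of their group. About 1 in 20 would be marked by chance.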

How the results depend on the processing

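Under all 33 alternatives, 196 counts over the 6 comparisons, 0 of the 9 genes were called, and the smallest FDR was 0.101. Unadjusted p for SMC against sham was less stable. In males it was under 0.05 for C1qb in 8 of the 33 alternatives and for Lyz2 in 4. In females it was under 0.05 for Cd163 in 8. Scaling by total library size shifted the median log2 fold change of all genes to -0.13 in males and -0.15 in females, and Mrc1 and Lyz2 in females then stood at -0.10 and -0.17. With voom sample weights C1qb and C1qc in females were 0.14 and 0.0701. Without male sham replicate 4 and female sham replicate 7, which had little slow muscle, Mrc1 and Lyz2 in females were -0.0421 and -0.11. Mrc1 in females was -0.12 without female sham replicates 7, 8 and 11, an alternative chosen after seeing the data. With 1 mouse left out at a time, Cd68 in males ranged from -0.51 to 0.0151 and Mrc1 in males from -0.11 to 0.10. In females the ranges were -0.22 to 0.14 for Adgre1, -0.23 to 0.17 for Csf1r, -0.0787 to 0.25 for Mrc1, -0.10 to 0.36 for Lyz2, -0.49 to 0.0676 for C1qa, -0.30 to 0.29 for C1qb and -0.31 to 0.24 for C1qc. The cause of these changes of sign was not tested. Over all genes the count of calls moved far more, in males from 0 to 128 with DESeq2, 93 with voom and 5 without the 3 female sham mice. In females it moved from 56 to 268 with DESeq2, 215 with total library size, 155 without the mice with little slow muscle, 37 with RLE scaling, 16 with voom, 14 with the 12 libraries compared and 3 without the 3 mice. With 1 mouse left out at a time it ranged from 0 to 78 in males, the highest without male sham replicate 5, and from 0, without female SMC replicate 22 or 23, to 147 in females, without female sham replicate 9, and was 1 without female sham replicate 8. No paired analysis was possible because the replicate numbers are not shared between groups.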
